A study of Homo sapiens with 16 samples.

Results

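The broad HDGF domains of control cells are 2077 of the 103880 intervals that the deposited HDGF control peak list holds on chromosomes 1 to 22. They were chosen by width alone, at 2000 bp or more, so their widths and the HDGF control enrichments that come with them describe the choice and are not findings. The series used chromatin immunoprecipitation followed by sequencing (ChIP-seq) in HEK293T, an established line from human embryonic kidney that is wild type per the labels. It has 16 samples, with 2 labelled replicates in each of 5 ChIP groups and 6 input samples that were not analysed here, and 1 peak list was deposited per ChIP group, so no value has a replicate error and no test between conditions was possible. HDGF was precipitated from cells with a control depletion and from cells kept without glucose for 24 h, with an antibody from Proteintech in both. INTS13 was precipitated from cells with a control depletion, from cells treated for 72 h with siPOOLs (pools of small interfering RNAs) against HDGF, and from cells kept without glucose for 24 h. For INTS13 the control and depletion groups used an antibody of Bethyl Laboratories and the starvation group one of Proteintech, so antibody and starvation cannot be told apart in the INTS13 lists. The remaining HDGF level after depletion was not analysed here.

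As background, HDGF (hepatoma-derived growth factor) is a chromatin protein with a PWWP domain, a fold that binds DNA and, in related proteins such as PSIP1, nucleosomes with H3K36 methylation, a histone mark of the bodies of transcribed genes. INTS13 is a subunit of Integrator, a complex that cleaves nascent RNA at small nuclear RNA genes and at RNA polymerase II paused near the start of protein-coding genes. Lack of glucose is known to activate the integrated stress response, whose target genes include SESN2, STC2 and PHGDH.

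The domains covered 8.28 Mb, which is 15.8% of all bases under the HDGF control list. Their widths ran from 2001 to 53866 bp with a median of 2834 bp (quartiles 2322 and 4033 bp). At the summit of the median domain the authors' fold over background was 4.03, against 2.86 for narrower intervals, which corresponds to 30 and 21 reads over a background of 6.69 reads. Most domains were thus wide and modestly enriched, and 7 of them had a fold of 7 or more. The 100 narrowest domains (2001 to 2048 bp) and the 100 widest intervals below the limit (1957 to 1999 bp) had the same median fold of 3.64, so the limit cuts through a continuous range.

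Promoters of 4 genes show the 2 placements that recur below. Each sequence is the 250 bases before the RefSeq gene start (GRCh38.p14), 5′ to 3′ along the gene, with every CG dinucleotide in capitals. The promoters of SRP9 (chr1:225777576-225777825, plus strand), a protein of the signal recognition particle, and H3-3A (chr1:226061581-226061830, plus strand), which encodes histone H3.3, lay entirely inside a broad domain. Those of STC2 (chr5:173328415-173328664, minus strand), a secreted stress-induced glycoprotein, and RPL4 (chr15:66504856-66505105, minus strand), a protein of the large ribosomal subunit, held no base of any HDGF control interval, although a domain began 1633 bp and 531 bp into these genes.
SRP9: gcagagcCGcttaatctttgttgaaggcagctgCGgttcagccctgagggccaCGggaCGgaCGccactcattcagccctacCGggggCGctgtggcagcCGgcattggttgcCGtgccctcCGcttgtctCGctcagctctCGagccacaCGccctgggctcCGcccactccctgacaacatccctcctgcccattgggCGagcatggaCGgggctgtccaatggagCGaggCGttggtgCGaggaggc
H3-3A: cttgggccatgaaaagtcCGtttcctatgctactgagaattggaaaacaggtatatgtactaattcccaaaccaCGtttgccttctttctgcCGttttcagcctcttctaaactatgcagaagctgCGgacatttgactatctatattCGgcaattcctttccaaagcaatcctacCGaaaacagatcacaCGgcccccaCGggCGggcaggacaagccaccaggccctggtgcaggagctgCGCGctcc
STC2: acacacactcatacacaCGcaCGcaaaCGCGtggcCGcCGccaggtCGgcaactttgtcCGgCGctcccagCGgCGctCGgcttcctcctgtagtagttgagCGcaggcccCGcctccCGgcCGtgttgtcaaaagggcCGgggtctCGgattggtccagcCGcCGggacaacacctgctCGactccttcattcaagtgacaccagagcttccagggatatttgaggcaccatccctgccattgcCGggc
RPL4: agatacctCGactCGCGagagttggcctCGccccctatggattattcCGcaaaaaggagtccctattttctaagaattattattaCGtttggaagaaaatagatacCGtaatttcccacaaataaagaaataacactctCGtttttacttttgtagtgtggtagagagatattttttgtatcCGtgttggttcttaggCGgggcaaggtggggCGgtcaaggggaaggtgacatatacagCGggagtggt

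The 4 sequences hold 19, 11, 22 and 12 CG dinucleotides in that order, so the placement of the domain does not follow the CG count among them. A RefSeq promoter sequence was matched for 15101 of 19126 protein-coding genes, among them 347 of the 411 genes with a domain over any of their bases. Promoters of those 347 genes held a median of 22 CG dinucleotides (quartiles 16 and 29) and had a median GC content of 65.2%, against 17 (quartiles 6 and 26) and 62.4% for all 15101. The 21 promoters whose gene start lay inside a domain held a median of 14 (quartiles 7 and 20) with a GC content of 61.2%. The promoter site equals the gene start used to place domains in only 13150 of the 15101 genes. At ENAH, one of the 21, the promoter lies 755 bp from that start and held no domain base. On either strand of the 250 promoter bases the GC box GGGCGG was found at 66.3% of the promoters of genes with a domain and 56.1% of all. CCAAT was found at 37.2% and 34.2%, and TATAAA at 4.32% and 9.42%. These letter matches are descriptions, GGGCGG itself contains a CG, and none of the differences was tested.

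Among genes with a domain over any of their bases, the start itself was seldom inside a domain. Distances to the nearest domain edge were taken only into the gene, so domains upstream of the start do not enter them. Genes with a domain had a median length of 32947 bp against a median domain width of 2834 bp. A bare start is therefore likely under many placements. No expected placement was set beside the counts, so a preference for downstream positions was not tested by them. The table of genes gives strand for the 347 genes above. In 21 of them the start lay in a domain, in 23 the nearest domain edge was 1 to 499 bp into the gene, and in 147 (42.4%) it was at least 500 and under 2500 bp in. A further 49 genes had their nearest edge at 2500 bp or more but under 5000 bp and 107 at 5000 bp or more, and the median was 2059 bp. STC2 and RPL4 are examples: 78.7% of STC2 and 82.5% of RPL4 lay under HDGF control intervals of any width, and neither start did. PHGDH, which encodes the enzyme that opens serine synthesis, had no HDGF control interval at its start and a domain from 1233 bp onward. At HNRNPU, which encodes an abundant RNA-binding nuclear protein, the nearest domain inside the gene began 1744 bp in. Another domain covered 37 of the 250 promoter bases before its start. SRP9 and H3-3A are the other kind, with the start inside a domain, and at H3-3A the domain that reaches the start is followed by a gap and a further domain of 7266 bp in the gene body.

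**Figure D1:**
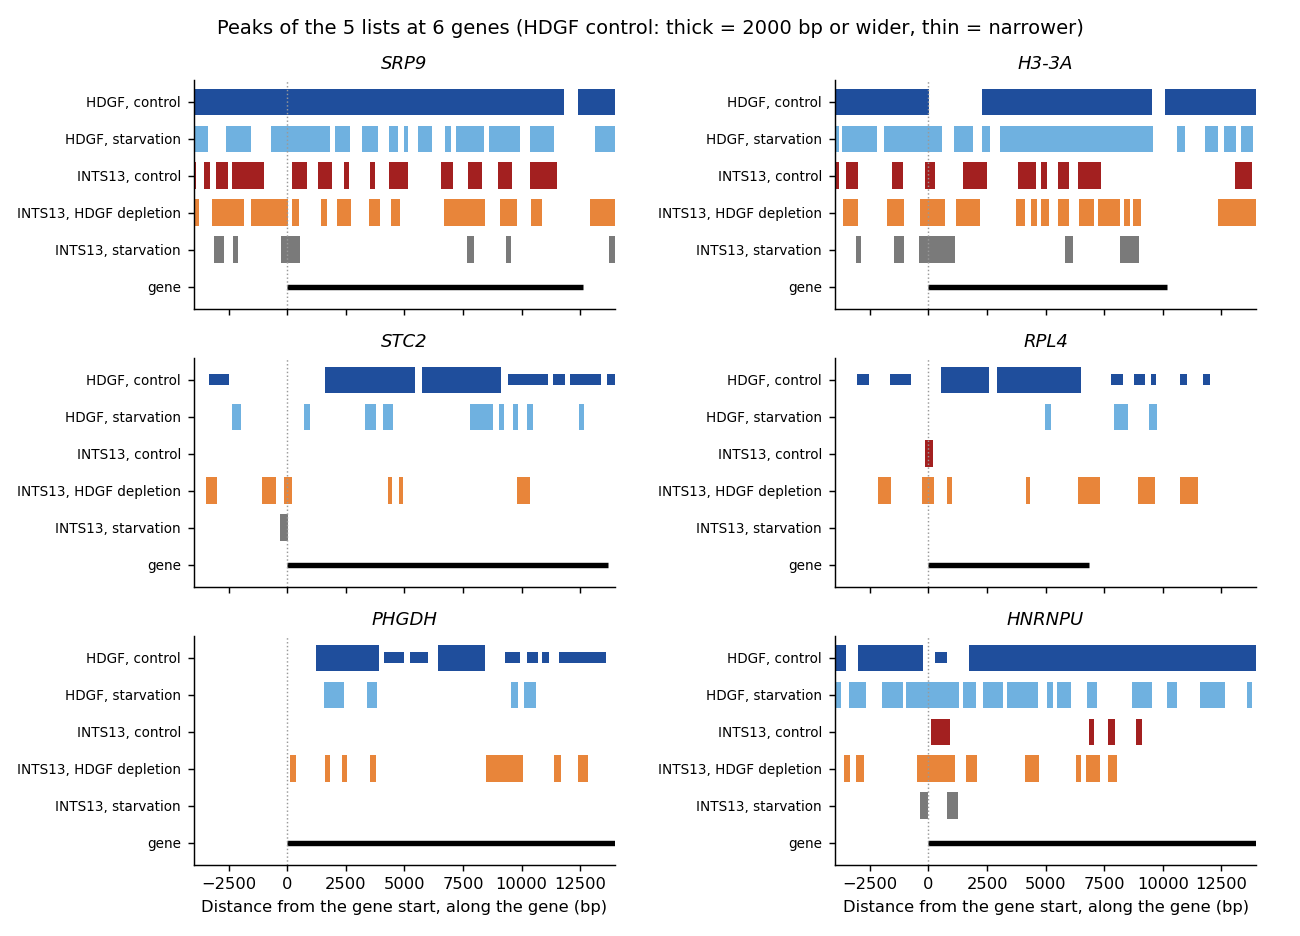
Peaks of the 5 lists at SRP9, H3-3A, STC2, RPL4, PHGDH and HNRNPU against the distance from the gene start in bp, along the gene. Each bar is a deposited interval, thick HDGF control bars are domains of 2000 bp or more, and the black line is the gene. The domain crosses the start at SRP9, while at STC2, RPL4 and PHGDH it begins 531 to 1633 bp into the gene.

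The gap at the start was clear when genes were lined up. Over the 286 stranded genes of at least 10 kb with a domain, an HDGF control interval of any width covered the position 1500 bp upstream of the start in 57.7% (interval 51.7 to 63.5), the start in 43 genes (interval 11.1% to 19.7%), the position 250 bp downstream in 9.79% (6.60 to 13.8) and the position 2000 bp downstream in 77.3% (72.0 to 82.0). The intervals are exact 95% binomial intervals, which treat genes as independent and cover counting error only. Domains alone covered the position 250 bp downstream in 4.90% of these genes and reached their highest share, 48.6%, 2750 bp downstream. These genes were chosen because HDGF control signal is broad in them, so the high shares beside the gap follow from the choice. The same shape was present in genes that the choice left out: in the 10828 genes of the same length without a domain, cover was 4.88% upstream at 1500 bp, 0.656% at 250 bp downstream and 7.58% at 2000 bp downstream. No such gap appeared at the 3′ end, where 46.9% of the 286 genes were covered at the end itself.

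The other 4 lists, which the choice of domains did not use, were placed differently around the same 286 starts. HDGF in starvation covered the start in 33.6% of the genes, and the positions 250 and 2000 bp downstream in 32.2% and 40.9%. The deep gap of the control list was thus not present in it. A shallower dip was, with 37.8% at 750 bp upstream, 29.0% at 250 bp upstream and 44.1% at 1250 bp downstream. Over all 11114 genes of at least 10 kb the shares at the start and 250 and 2000 bp downstream were 3.10%, 3.08% and 3.91%. The dip was shallow there too, with 3.64% at 750 bp upstream, 3.02% at 250 bp upstream and 4.16% at 1250 bp downstream. INTS13 in starvation was sharpest at the start, at 27.3%, and covered 4.20% of the genes 2000 bp downstream, and over all 11114 genes it was likewise highest at the start, at 3.15%, with 0.252% at 2000 bp. INTS13 in control cells had its highest cover, 16.4%, 250 bp downstream, and INTS13 after HDGF depletion stayed between 23.4% and 33.6% from 5000 bp upstream to 5000 bp downstream. Over all 11114 genes INTS13 control was highest at the start, at 1.25%, and INTS13 after depletion stayed between 2.29% and 3.39%. Among the 78 genes with an INTS13 starvation peak over the start, HDGF control covered the start in 12 (15.4%) and the position 2000 bp downstream in 72 (92.3%). Among the other 208 genes these counts were 31 (14.9%) and 149 (71.6%). HDGF in starvation covered the start in 43 (55.1%) and 53 (25.5%) of the same 2 sets, and the HDGF and INTS13 starvation lists come from the same treatment. These shares also differed between the 140 genes with a domain in a large run (at least 20 domains, described below) and the other 146. INTS13 starvation covered the start in 35.7% and 19.2%, and HDGF starvation in 52.9% and 15.1%. HDGF control covered the position 2000 bp downstream in 88.6% and 66.4%. The split was not tested apart from the runs.

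**Figure D2:**
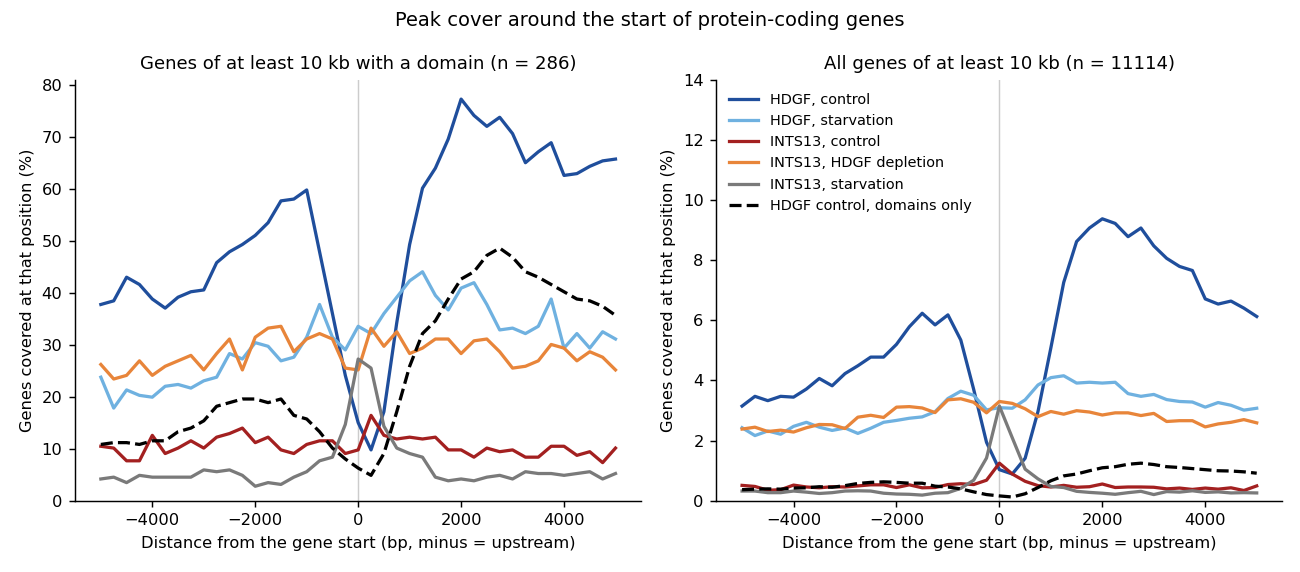
Share of genes (%) in which each list covers a position, against the distance from the gene start in bp, for the 286 genes with a domain and for all 11114 genes of at least 10 kb. Lines are the 5 lists and, dashed, domains only, and the vertical scales of the panels differ. HDGF control falls to 9.79% at 250 bp downstream and rises to 77.3% at 2000 bp in the left panel, while INTS13 in starvation peaks at the start at 27.3%.

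Domains seldom reached the outer ends of genes. Of the 2077 domains, 1092 (52.6%) lay inside a protein-coding gene, against 69.1% of all HDGF control intervals, and 879 (42.3%) lay outside genes, against 30.0%. A gene end or a whole gene lay in 106 domains (5.10%), against 0.972% of all intervals. A start site lay in 21 domains, against 0.160% of all intervals, and a 3′ end in 69, against 0.669%. These counts share 2 domains that held both, and 22 domains held an end of a gene without strand in the tables used here. A wide interval reaches more positions, and by the summit, which does not grow with width, the order was the other way: 3.85% of domain summits lay within 1000 bp of a gene end against 4.76% of all summits. The domains that held a start included those of PCDH9, ENAH, LIN9, TAF12, ALDOA, SRP9 and H3-3A. The gene of HDGF itself held a domain of 2490 bp at chr1:156741647-156744136, which took in the 3′ end of HDGF and the start of its neighbour MRPL24.

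Genes with a domain included members of several families with roles in protein synthesis, RNA binding and stress. A domain lay over at least 1 base of 411 of 19126 protein-coding genes (2.15%), and these genes had a median length of 32947 bp against 24476.5 bp for all. Ribosomal protein genes held one in 9 of 75: RPL3, RPL4, RPL32, RPS6, RPL28, RPLP1, RPL13, RPL24 and RPS12. Translation factors held one in 4 of 29 (EIF4A1, EIF1, EIF3A and EIF3D) and genes of the integrated stress response in 6 of 31 (SESN2, STC2, CTH, PHGDH, SLC3A2 and ATF3). Genes of splicing and RNA-binding proteins of the SR and hnRNP families held one in 5 of 30, cytoskeleton and glycolysis genes in 4 of 20 (ALDOA, PKM, ACTG1 and PGAM1), chaperone genes in 3 of 21 (CCT3, TCP1 and BAG3) and host genes of small nucleolar RNAs with other long noncoding RNAs in 3 of 24 (GAS5, SNHG12 and SNHG3). Histone variants held one in 1 of 10 (H3-3A), the HDGF family and its partners in 1 of 17 (HDGF), immediate early genes in 1 of 37 (MCL1) and HOX cluster genes in 1 of 39 (HOXB3), of which the last pair (2.70% and 2.56%) lie near the share of all genes. None was found at 58 replication-dependent histone genes, 19 Integrator subunit genes, 20 spliceosomal and related snRNA genes, 16 liver genes, 16 blood genes or 13 neuron and glia genes. These lists are short, so a count of 0 lies near the 2.15% of all genes. The replication-dependent histone and snRNA genes are themselves far shorter than a domain. SESN2, CTH, PHGDH, HNRNPU, H3-3A, HDGF, MCL1 and CCT3 all lie on chromosome 1, which held 42.0% of domains and 10.8% of protein-coding genes. Other members, such as RPL3, STC2 and ALDOA, lie elsewhere. The counts per family were not adjusted for this uneven placement.

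Domains in these families were carried only partly by the other lists. The RPL3 domain (7635 bp, fold 4.42) had 89.7% of its bases under HDGF starvation peaks, 4.09% under INTS13 control, 22.7% after HDGF depletion and none in INTS13 starvation. The widest RPL4 domain (3576 bp, fold 4.16, at chr15:66498363-66501938) had 8.25% of its bases under HDGF starvation and 9.20% under INTS13 after depletion. It had none in either other INTS13 list. The RPL4 domain that begins 531 bp into the gene is a different one, whose cover is not given here. These RPL3 and RPL4 domains, both at genes of the large ribosomal subunit, thus differed widely in HDGF starvation cover. The RPL3 domain lies in a large run of domains (described below), and in that run HDGF starvation covered 77.1% of domain bases. The RPL4 domain lies in no large run, and gene and run were not separated. At RPL32 and RPS6 the HDGF starvation share was 31.5% and 30.7%.

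Stress-response genes were as uneven. SESN2, whose product restrains mTORC1, held a 15057 bp domain across its 3′ end that was 71.1% under HDGF starvation peaks and 67.4% under INTS13 peaks after depletion, with 34.3% in INTS13 control and 22.6% in INTS13 starvation. The domain of STC2 (3801 bp) had 23.5% of its bases under HDGF starvation and 10.5% under INTS13 after depletion, with none in the other INTS13 lists. The domain of PHGDH (2672 bp) had 46.4% and 25.6% in the same 2 lists. CTH, which encodes cystathionine gamma-lyase, had 19.1% under HDGF starvation, 6.63% under INTS13 control and 15.05% under INTS13 after depletion. The SESN2 domain lies in a large run, in which HDGF starvation covered 45.9% of domain bases. The domains of STC2, PHGDH and CTH lie in no large run. The domains of MCL1, a survival factor of the BCL2 family (3036 bp, fold 4.81), and TCP1, a chaperonin subunit (2100 bp, fold 2.99), touched no interval of the other 4 lists. Each of the named domains is a single reading per list, and whether loss of cover reflects less protein or fewer reads was not tested.

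Along the genome the domains were far from evenly spread. Chromosomes 1 and 13 held 872 and 812 of them, together 81.1%, against 39.9% of all HDGF control intervals and 12.5% of protein-coding genes, while chromosomes 2 and 8 held none. When domains at most 1 Mb apart were joined into runs, a definition made after the data were seen, 1720 domains (82.8%) fell into 12 runs of at least 20 domains that spanned 36.0 Mb, and 49 domains stood alone. The median gap between neighbouring domains was 4173 bp, and 395 of 2057 gaps were under 500 bp, so many neighbours stood a short distance apart. Joining intervals under 500 bp apart gave a stretch of 264 kb at chr9:79573703-79838001, over TLE4.

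The run with the most domains and the run with the largest share of its bases in domains (68.0%, on chromosome 9) lay where there are few genes. The run at chr13:61748292-68396630 held 627 domains and 3 protein-coding genes, and PCDH9, which encodes a neuronal protocadherin, was the only one with a domain. HDGF control intervals covered 78.2% of this run and 3.72% of the 1 Mb on either side. PCDH9 alone held 99 domains over 89.3% of its length. A run at chr9:79169128-80168530 held 84 domains and 1 gene, TLE4, a transcriptional corepressor of the Groucho family, whose length lay 98.6% under 3 domains of 52225, 52943 and 53866 bp, the last of these the widest of all. Outside this run, in the 1 Mb on each side, HDGF control covered 0.314% of bases. Low HDGF control cover beside both runs is partly fixed by the definition, as a run ends where no domain follows within 1 Mb.

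All lists were raised over these 2 runs. Over the chromosome 9 run HDGF starvation covered 59.3% of bases, INTS13 control 48.9%, INTS13 after depletion 40.2% and INTS13 starvation 43.2%, against 0.0336%, 0, 0.138% and 0.0404% in the flanks. Over the chromosome 13 run the shares were 35.5%, 30.7%, 19.5% and 21.96%, against 0.745%, 1.47%, 1.78% and 0.419%. Within the chromosome 13 run the mean cover of each list was lower after the opening stretch. In the 8 bins of 50 kb that make up its opening 400 kb, mean cover by HDGF reached 98.1% in control and 89.1% in starved cells, and mean cover by INTS13 reached 72.1% in control, 35.7% in depleted and 83.4% in starved cells. In the 122 bins from 0.5 Mb onward the same means were 76.8%, 31.9%, 27.8%, 18.2% and 17.8%. Bins between 400 kb and 0.5 Mb entered neither mean. In HDGF starvation, INTS13 control and INTS13 starvation none of the 122 bins reached the lowest of the opening 8. In HDGF control and INTS13 after depletion later bins reached 99.3% and 32.3%, inside the range of the opening 8, so there was no clean step. The deposited folds are taken against a single background per list, with no fold in any list having more than 1 p-value, so no correction was made for local differences in DNA amount or mapping. HEK293T cells are known to carry altered chromosome numbers, and the copy number of these runs was not tested.

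**Figure D3:**
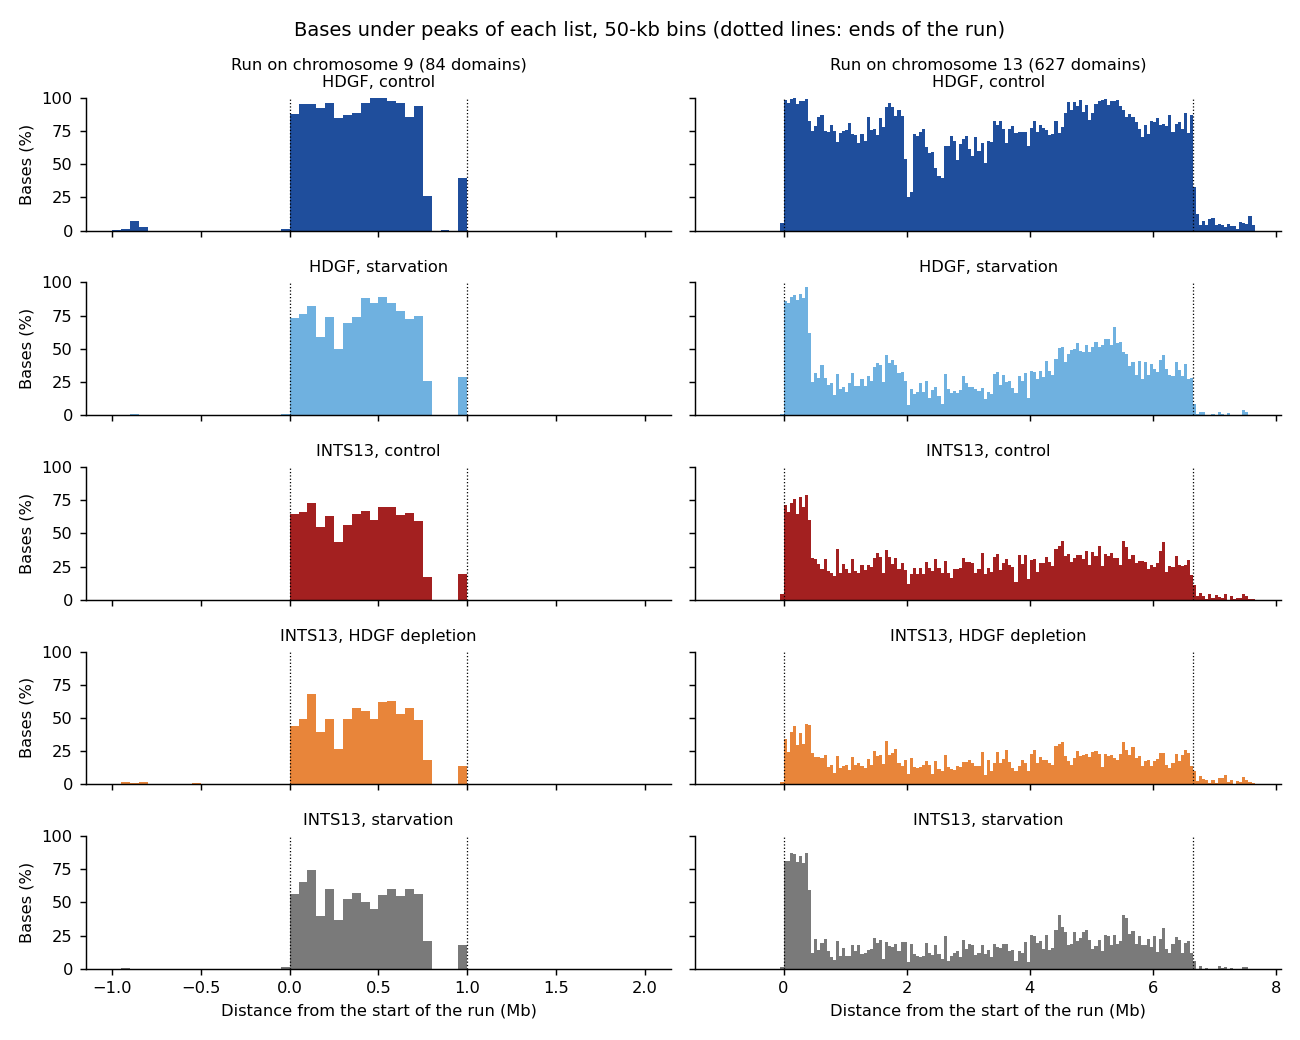
Bases under peaks (%) of each of the 5 lists in 50-kb bins, against the distance in Mb from the start of the run on chromosome 9 (84 domains) and of the largest run on chromosome 13 (627 domains). Dotted lines mark the ends of each run. Cover starts and stops at nearly the same place in all 5 lists. On chromosome 13 its mean is lower from 0.5 Mb onward than in the opening 400 kb in each list. The bins of these 2 stretches do not overlap in range in HDGF starvation, INTS13 control and INTS13 starvation only. Bins between 400 kb and 0.5 Mb are in neither stretch.

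Most of the other large runs lay among genes. The run at chr1:223704989-233366721 held 407 domains and 80 genes, 62 of them with a domain, and the run at chr16:29802736-30986820 held 48 domains over 58 genes, 31 with a domain. Of the 102 domains at chr13:71398675-75909825, 92 lay inside a gene. Genes with many domains there included CDC42BPA (31), DACH1 (26), ARID4B (23) and ENAH (22), which encode a kinase, a transcription factor, a chromatin protein and an actin regulator. ENAH lay 85.2% under domains and DACH1 16.4%, so a high number of domains went with near-complete or with partial cover.

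Not every list was higher inside the domains than between them. Domain bases were covered more than the bases between HDGF control intervals of the same run in 12 of 12 large runs by HDGF starvation, in 11 by INTS13 after depletion, in 9 by INTS13 control and in 6 by INTS13 starvation. In the run at chr1:30759282-33472177 INTS13 starvation covered 3.75% of domain bases and 9.06% of the bases between intervals, while HDGF starvation covered 49.0% and 30.4%. In the chromosome 9 run the INTS13 starvation shares were 57.0% and 7.05%. All 12 runs lay above their flanks in HDGF starvation, INTS13 control and INTS13 after depletion, and 9 of 12 did in INTS13 starvation. The flanks hold no domain by construction, so the same comparison in HDGF control is fixed by the definition.

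Most domains met a peak of the other lists. HDGF starvation peaks overlapped 1860 domains (89.6%, interval 88.2 to 90.8), against 21.1% of all HDGF control intervals. INTS13 control overlapped 1579 (76.0%, interval 74.1 to 77.8), against 10.8%. INTS13 after HDGF depletion overlapped 1789 (86.1%, interval 84.6 to 87.6), against 23.2%, and INTS13 starvation overlapped 976 (47.0%, interval 44.8 to 49.2), against 5.52%. These intervals treat domains as independent and cover counting error only. As 1720 domains (82.8%) lie in 12 large runs, the intervals are likely too narrow. An overlap of 1 base is easier for a wide interval. With a fixed window of 250 bp on either side of the summit the shares were 67.3%, 45.3%, 56.5% and 26.1%, against 20.8%, 9.84%, 23.1% and 4.98% of all intervals, so the order of domains above all intervals held by a measure that width does not enter. The lists differ in length and background (66040, 27451, 98301 and 14817 intervals on these chromosomes, and backgrounds of 7.41, 6.40, 4.20 and 7.41 reads), so shares of different lists do not rank proteins or treatments.

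By bases, the cover was partial and rose with width. HDGF starvation covered 49.7% of domain bases, INTS13 control 30.2%, INTS13 after depletion 34.5% and INTS13 starvation 21.8%, against 15.1%, 6.39%, 14.5% and 3.64% of the bases of narrower intervals. For the 82 domains of 10000 bp or more the shares were 73.2%, 51.4%, 40.7% and 44.5%. Where the other lists met a domain, they did so with 2 or more separate peaks in 70.8% of cases for HDGF starvation, 66.8% for INTS13 control, 70.4% after depletion and 56.9% for INTS13 starvation. Among all HDGF control intervals that were met, these shares were 14.2%, 16.7%, 13.8% and 15.8%. A wider interval has room for more peaks, so these shares grow with width. Of the 1192 intervals of at least 2000 bp in HDGF starvation, 520 (43.6%) touched a domain, as did 152 of 195 (77.9%) in INTS13 control, 197 of 386 (51.0%) after depletion and 207 of 354 (58.5%) in INTS13 starvation. The widest domain, at chr9:79679265-79733130 over the 3′ end of TLE4, was met by 15 HDGF starvation peaks over 89.5% of its bases, 36 INTS13 control peaks over 72.1%, 32 after depletion over 66.7% and 33 INTS13 starvation peaks over 60.6%.

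**Figure D4:**
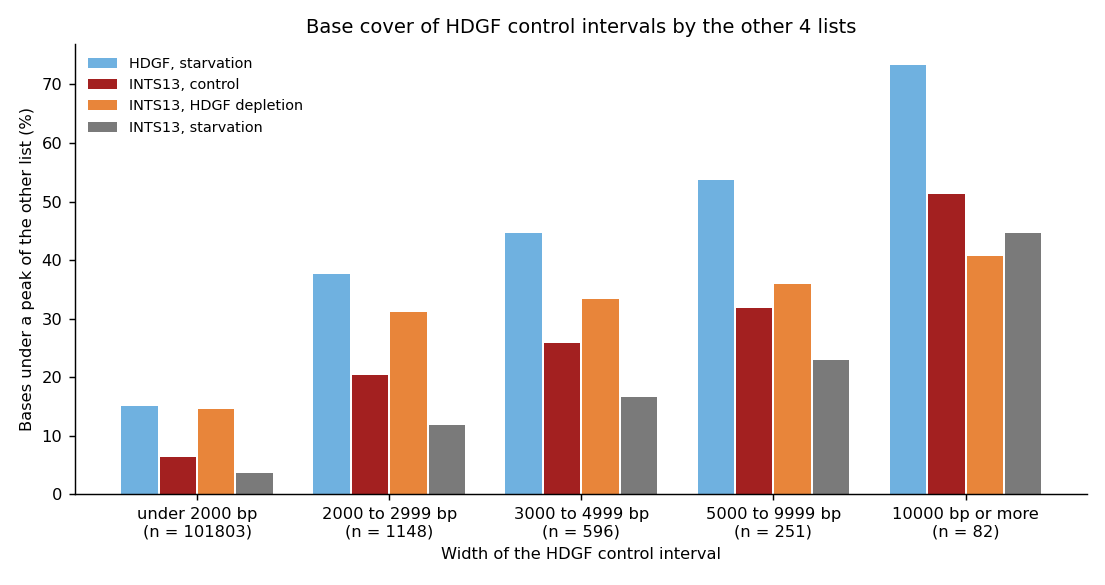
Bases of HDGF control intervals under peaks of each of the other 4 lists (%), by the width of the interval in bp, with the number of intervals per class. Bars are the 4 lists. In all 4 the share is lowest below 2000 bp (3.64% to 15.1%) and highest at 10000 bp or more (40.7% to 73.2%). Width and location in the large runs are not separated.

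Cover was higher in the large runs than outside them. In the 357 domains outside them, 82.4% inside a gene, INTS13 control overlapped 32.8% and INTS13 starvation 11.2%, compared with 85.0% and 54.4% of the 1720 domains within them. HDGF starvation overlapped 73.9% and 92.8%, and INTS13 after depletion 75.1% and 88.4%. For the 294 domains outside large runs and inside a gene, base cover was 6.25% by INTS13 control and 3.34% by INTS13 starvation. HDGF starvation covered 24.7% and INTS13 after depletion 18.8%. In narrower intervals of all chromosomes the shares in the same order were 6.39%, 3.64%, 15.1% and 14.5%. That set includes intervals within the large runs. It also includes chromosomes 1 and 13, where INTS13 control covered 9.70% and 15.7% of narrower bases. Narrower intervals outside the large runs were not set apart, so domains and narrower intervals are not matched in location here. Chromosome by chromosome, domains had more of their bases covered than narrower intervals on 19 of the 20 chromosomes with domains by HDGF starvation, on 20 by INTS13 after depletion, on 16 by INTS13 control and on 13 by INTS13 starvation.

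All 4 other lists met 903 domains (43.5%, against 3.07% of all intervals), of which 561 lay outside genes, and none met 81 (3.90%, against 65.4%), of which 69 lay inside a gene. The combination of HDGF starvation with both Bethyl INTS13 lists but not INTS13 starvation was the next most frequent, at 510 domains. The widest domains met by none were in UCHL3, a deubiquitinase gene (5226 bp, fold 3.90), NFIA, a transcription factor gene (4518 bp), and DACH1 (4192 bp), followed by ARID4B (4077 bp), RBM33 (3518 bp) and CDC42BPA (3483 bp). Among the domains met by all 4, those with the highest folds at a gene were covered over most of their length. In C1QTNF3 a domain of 2969 bp with a fold of 10.1 had 98.5% to 99.6% of its bases under each other list, and 2 domains of NBPF1, a gene with near-identical copies where reads may be split between copies, had at least 84.8%. The domain with the highest fold of all (52.2, 3467 bp at chr16:46388569-46392035) lay outside genes and was covered at 99.9% to 100% by every other list.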

How the data were processed

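The series holds 16 ChIP-seq samples of HEK293T cells, and the 5 deposited peak lists, 1 per ChIP group, were used here. The submitters' processing notes name hg38 as the build, with MACS2, Picard, Bowtie, Trimmomatic and FastQC as tools. The sources used here do not give versions, settings, the use of inputs or the way replicates were combined. Each deposited interval has the authors' integer score, the fold (a ratio of reads at the summit to the background of the list), a summit position, and a −log10 p and a −log10 q value. The scores entered no result. In no list did a fold have more than 1 p-value, and the background in reads was recovered from these pairs with a Poisson distribution. It ran from 4.20 to 7.41 reads, with the same value in both starvation lists. Whether the authors scaled reads between libraries was not tested, so these backgrounds are no direct measure of depth.

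Domains are HDGF control intervals of at least 2000 bp on chromosomes 1 to 22. Intervals overlapped at 1 shared base or more. Base cover was also computed, as was a peak within 250 bp of the summit. Genes were RefSeq protein-coding genes of GRCh38.p14, with strand from the RefSeq promoter table, whose orientation agreed in all 1869 overlapping pairs of opposite strands. Positions within 5000 bp of a start or 3′ end were read in steps of 250 bp. Domains with gaps of at most 1 Mb form a run. Shares of a single list have exact (Clopper-Pearson) 95% intervals for counting error. The overlap code was tested on simulated data with known answers. Python 3.11.15, pandas 2.3.3, numpy 2.4.6 and SciPy 1.17.1 were used.

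The members and gene lists were chosen with earlier results of these data known. Named domains are the 12 widest, the 8 with the highest fold at a gene, the 6 widest met by all and the 6 widest met by none of the other 4 lists, the 6 with the largest share under INTS13 control, and up to 4 per gene list by width, of which the text gives a part. Domains with the highest fold anywhere and the genes in the plots were chosen after their values were seen.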

Additional observations from a re-analysis of the deposited data

Results flagged for a closer look

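Chromosome X lies outside the chromosomes described above and held 14 HDGF control intervals of at least 2000 bp, the widest of 6839 bp. They are a signal in data that no comparison above used.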

How the results depend on the processing

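With 1 list per group, no replicate could be left out. No paired analysis was possible because the 2 labelled replicates of each group share 1 peak list. The number of domains was 3633 at a limit of 1500 bp, 929 at 3000 bp, 357 with a −log10 q of at least 10 and 4673 after joining intervals under 500 bp apart. The share of domains met by HDGF starvation, INTS13 control, INTS13 after depletion and INTS13 starvation, in that order, fell to 37.9%, 14.97%, 25.4% and 11.4% when 50% of the domain had to be covered, and to 67.3%, 45.3%, 56.5% and 26.1% for the summit window. It was 78.5%, 64.9%, 76.9% and 34.8% with peaks at a −log10 q of at least 3, and 96.2%, 88.4%, 92.7% and 61.6% for domains of at least 3000 bp. With the 15000 strongest peaks of each list it was 63.6%, 64.2% and 62.3% for the lists other than INTS13 starvation, which holds fewer and did not change. The order of the lists thus changed with the number of peaks kept. Without chromosomes 1, 13 and 22, which leaves 326 domains, it was 86.8%, 59.5%, 85.0% and 48.5%. The large runs of chromosomes 9, 15 and 16, with 84, 30 and 48 domains, remain in that set. In the 357 domains outside all large runs the shares were 73.9%, 32.8%, 75.1% and 11.2%.

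The share of domain bases covered was 37.5%, 26.4% and 24.9% with the 15000 strongest peaks of HDGF starvation, INTS13 control and INTS13 after depletion. Without chromosomes 1, 13 and 22 it was 62.6%, 42.9%, 45.2% and 37.4% in the 4 lists, where the run over TLE4 weighs more. For domains of at least 3000 bp it was 55.7% in HDGF starvation, 35.2% in INTS13 control and 26.7% in INTS13 starvation. The share at a gene end was 11.8% with all annotated genes, 12.2% within 1000 bp of a domain, 8.59% without chromosomes 1, 13 and 22, and 3.85% by the summit. In alternatives chosen after seeing the data, 82.4% of domains lay inside a gene outside the large runs, and 38.0% lay outside genes without chromosomes 1, 13 and 22 or 28.9% with all annotated genes. The rise in HDGF control cover from 250 to 2000 bp downstream of the start was 67.5 percentage points in genes with a domain and 8.48 in all genes. It was 64.6 without chromosomes 1, 13 and 22, 62.3 in genes with no domain in a large run and 67.2 in genes of at least 20 kb. Runs of at least 20 held 1684 domains with gaps up to 500 kb and 1803 with gaps up to 2 Mb. Backgrounds of 4.20 to 7.41 reads are the only values related to depth used here, and how the calling of weak stretches depends on depth was not tested.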
